A study of Bos taurus with 20 samples.

Results

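The polymorphic histocompatibility genes of the bovine leukocyte antigen (BOLA) region were 7 genes of the 25381 gene or transcript names on a bovine Agilent array, followed through 19 of its 43653 noncontrol probes. The members were the probes that the array names BOLA-DQB (3 probes), BOLA-DQA2 (2), BOLA-DQA3 (2), HLA-DQA2 (6) and JSP.1 (3), and 3 further probes taken by their probe names: A_73_P109256, now assigned to BOLA-DQB1, and A_73_P062199 and A_73_P031561, now assigned to BOLA-DQA5. HLA-DQA2 is here the array's name for bovine sequences that resemble a human gene. The genes had been picked because their levels on these same arrays fell into a high and a low state, so the states and their stability are described below without a test. Another 5 probes carry a member's name only in the current RefSeq gene table, 3 of BOLA-DQB1 and 2 of JSP.1, and serve as a comparison.

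Endometrium was taken with biopsy forceps from 10 female cows, each sampled early (42 to 86 days after calving) and late (343 to 436 days), on day 7 after estrus and from the horn of the uterus that faced the ovary with the corpus luteum. The labels name no treatment and give neither the breed nor the age of the cows, and all samples share the same stage of the cycle. The 20 samples were labelled with Cy3 and hybridised 1 per array. A level is given on the log2 scale relative to the 75th percentile of the same array, so 0 is the level of a bright spot on that array, and levels of different probes are not compared.

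Classical major histocompatibility complex (MHC) molecules present peptides to T cells. Class II molecules such as DQ pair an alpha chain, encoded by DQA genes, with a beta chain, encoded by DQB genes, and are found mainly on macrophages, dendritic cells and B cells, while class I heavy chains such as JSP.1 are made by most nucleated cells. In cattle the DQ genes are highly polymorphic, some haplotypes carry duplicated DQA and DQB genes, and a whole set of alleles is inherited together as a haplotype.

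The probe sequences show how alike the printed stretches are, not the whole transcripts, and some 2-state probes overlap closely. The DQB set and the pair of BOLA-DQA2 and BOLA-DQA5 were lined up from a chosen short start. Identity was 73.3% between BOLA-DQB1 and BOLA-DQB and 66.7% between BOLA-DQA2 and BOLA-DQA5. Both are below the 80% used to list overlaps between probes. The following stretches of at most 30 bases come from 3 DQB-like probes, each with a different set of high cows: all but cows 2 and 4, cow 1 alone, and cows 2 and 4. Capitals mark bases of the lower lines that do not meet an identical base of the first in a gapped alignment. The second carries the array name LOC790858, is not a member and was added after its values were seen. It comes from the same transcript record as A_73_P107936, a comparison probe that the RefSeq table assigns to BOLA-DQB1 through another accession, so whether it should count as BOLA-DQB1 is not settled by the files.
A_73_P109256 (BOLA-DQB1): gaaaccattacctgcttatagagtatatc
A_73_P042991 (LOC790858): gaaaccattaccTtgctatagagtatGCc
A_73_105688 (BOLA-DQB): gaaaccaTttGcctgGCtatagaAttTtT
Over 30 alignment columns the LOC790858 stretch was identical to that of BOLA-DQB1 at 26 and the BOLA-DQB stretch at 22. The next pair comes from the probes of BOLA-DQA2 and BOLA-DQA5 that took opposite states, with capitals where BOLA-DQA5 differs.
A_73_P106611 (BOLA-DQA2): atgagatcactggggtattccaccctacta
A_73_P031561 (BOLA-DQA5): atgGgatcTctgAgAtatCccacTcAGcAG
These agreed at 20 of 30 bases. The third set holds the probes that were high in cow 1 alone, with capitals at the bases that differ.
A_73_P036601 (HLA-DQA2): gtgaccctgatTccatgtcaccacAgaagc
A_73_P245461 (BOLA-DQA3): gtgaccctgatCccatgtcaccacGgaagc
Over their full overlap of 51 bases these probes differed only by T16C and A29G, counted from the 5′ end of A_73_P036601. The fourth set is a pair of HLA-DQA2 probes on one transcript record, of which the first is the most nearly 2-state of the remaining members.
A_73_P052576 (HLA-DQA2): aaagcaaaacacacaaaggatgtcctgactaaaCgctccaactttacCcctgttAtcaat
A_73_P235072 (HLA-DQA2): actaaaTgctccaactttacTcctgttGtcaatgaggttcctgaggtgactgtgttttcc
They share 33 bases with 3 differences, C34T, C48T and A55G from the 5′ end of A_73_P052576, so that probes given one gene name do not carry one sequence. The last set covers one JSP.1 stretch, with capitals in the lower lines where they differ from A_73_P047531, and in its own line where either of them differs from it.
A_73_P047531 (JSP.1): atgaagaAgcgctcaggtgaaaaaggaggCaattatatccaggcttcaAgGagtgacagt
A_73_P107911 (JSP.1, current name): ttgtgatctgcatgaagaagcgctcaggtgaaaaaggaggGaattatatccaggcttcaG
A_73_P109228 (JSP.1, current name): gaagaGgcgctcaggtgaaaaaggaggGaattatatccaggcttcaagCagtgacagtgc
The second matched A_73_P047531 at 47 of 49 shared bases and the third at 55 of 58. The file headers use the build HGSC Btau_3.1, on which the mapped DQ probes lie on chromosome 23, among them A_73_105688 at chr23:26226768-26226827 on the plus strand and A_73_P031561 at chr23:26243093-26243152 on the minus strand. A_73_P062199 lies directly beside the latter at chr23:26243033-26243092. The JSP.1 probe A_73_P296616 lies at chr23:28598893-28598952 on the minus strand, and A_73_P047531 spans chr23:28599390-28600011, longer than its 60 bases. The files give A_73_P109256, A_73_P106611, A_73_P036601 and A_73_P245461 as unmapped, and exon and UTR annotation of that build was not used here.

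A probe was counted as in 2 states when the widest gap between its 20 sorted levels, with at least 2 arrays on each side, reached 2.5 on the log2 scale. By this measure 10 of the 19 members were in 2 states, against 88 of the 43293 probes measured on every array (0.203%). Since the members were chosen for this, nothing is read from the difference. A_73_P336561 (BOLA-DQB), with a gap of 4.69, was the member just inside the limit and A_73_P052576 (HLA-DQA2), with 2.47, the one just outside. The gaps of the other 8 members ranged from 0.10 to 0.87.

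**Figure D1:**
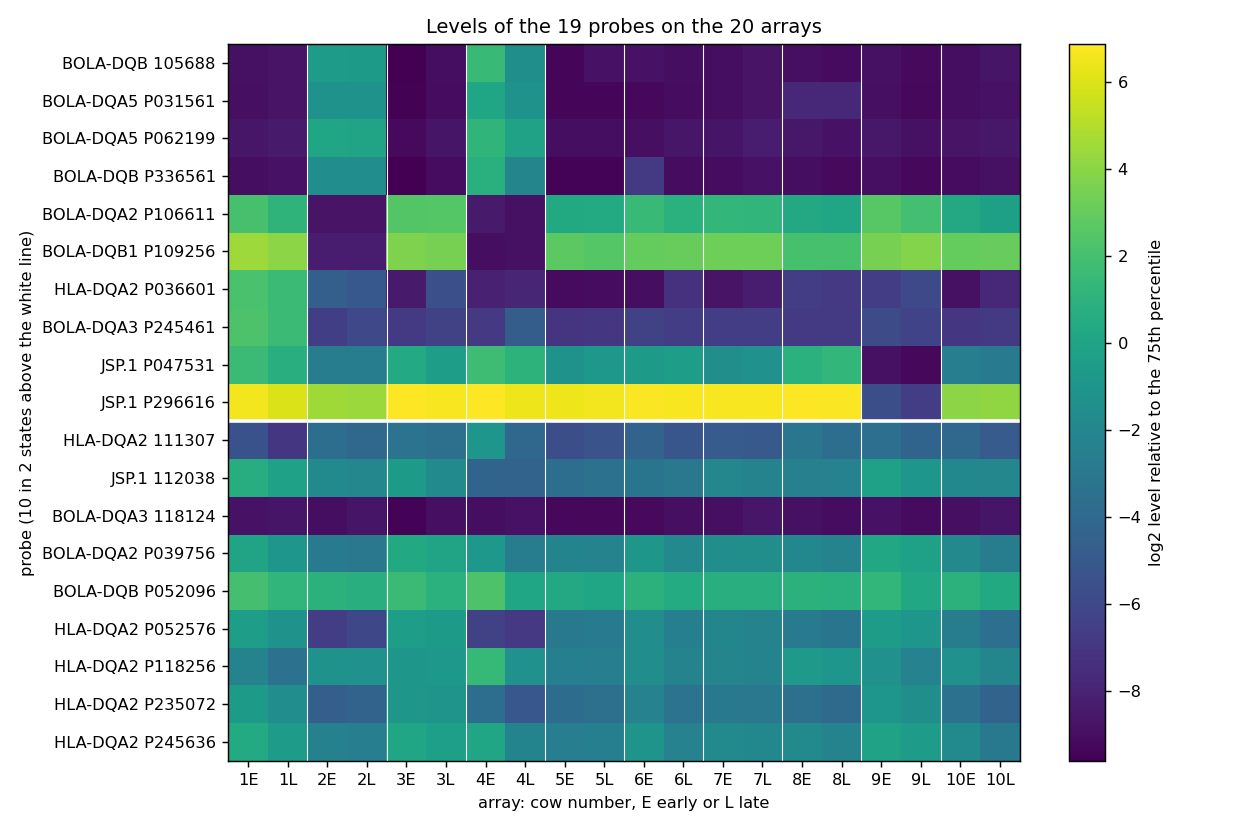
Colour gives the log2 level of each of the 19 probes (rows) on each of the 20 arrays (columns, cow number with E for early or L for late), with the 10 probes in 2 states above the white line. The 4 probes at the top are bright only in cows 2 and 4, the 2 below them are dark in the same cows, the next 2 are bright in cow 1 and the last 2 above the line are dark in cow 9.

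The 10 probes followed 4 patterns across cows. BOLA-DQA5 and BOLA-DQB, an alpha and a beta chain gene, were high together in cows 2 and 4. BOLA-DQA2 and BOLA-DQB1, also an alpha and a beta chain gene, were high in the other 8 cows and low in cows 2 and 4. The BOLA-DQA3 probe A_73_P245461 and the HLA-DQA2 probe A_73_P036601 were high in cow 1 alone, and 2 JSP.1 probes were low in cow 9 alone. Each DQA and DQB pair of the first pattern was in the opposite state to each of the second on 20 of 20 arrays.

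For the beta chain gene BOLA-DQB1, A_73_P109256 read -8.28 early and -8.33 late in cow 2, and -9.01 early and -8.84 late in cow 4. In the other 8 cows it ranged from 2.08 through a median of 3.11 to 4.47 early. Late, the same 8 cows ranged from 2.08 through 3.17 to 3.98. No array lay between -8.28 and 2.08, a gap of 10.35. None of the 4 low arrays was well above background, so the dimmest high array was at least 397-fold over the highest detection bound of these low arrays. Detection bounds were each array's lowest level well above background.

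The alpha chain gene BOLA-DQA2 had the same division at A_73_P106611. Cow 2 read -8.72 early and -8.70 late, and cow 4 read -8.42 and -8.83. The other 8 cows ranged from 0.33 to 2.62 early and from -0.23 to 2.52 late. Cows 9 and 3 were the highest in both periods. The second BOLA-DQA2 probe, A_73_P039756, was not in 2 states, as described below.

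The alpha chain gene BOLA-DQA5 was the reverse. At A_73_P062199, cow 2 read 0.07 early and 0.04 late, cow 4 read 1.19 and -0.07, and the other 8 cows lay between -9.18 and -8.35 in both periods. At the adjoining A_73_P031561, cow 2 read -1.15 and -1.11, cow 4 read 0.14 and -1.16, and no other cow exceeded -7.70. None of the 16 low arrays of either probe was well above background. Both probes therefore placed the same pair of cows apart from all others.

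Of the BOLA-DQB probes, A_73_105688 read -0.56 early and -0.65 late in cow 2, and 1.60 and -1.39 in cow 4, with all other cows between -9.54 and -8.69. A_73_P336561, further along the same transcript record, read -1.55 and -1.51 in cow 2 and 0.88 and -2.12 in cow 4. Its other 16 arrays reached -6.80 at most, and 1 of them, the early array of cow 6, was well above background. The third BOLA-DQB probe, A_73_P052096, was well above background on all 20 arrays, from 0.10 to 2.30, with no gap over 0.40. Probes of one transcript record thus gave a state in 2 cases and a graded level in the other.

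Cow 1 alone was high at the alpha chain probe A_73_P245461 (BOLA-DQA3), with 2.26 early and 1.66 late. The other 9 cows ranged from -7.10 to -5.80 early and from -6.99 to -4.77 late. At the overlapping A_73_P036601 (HLA-DQA2) cow 1 read 2.13 and 1.63, and the others ranged from -9.10 to -4.62. These low arrays were less uniform than those of the other patterns, since 12 of 18 at A_73_P245461 and 4 of 18 at A_73_P036601 were well above background. The other BOLA-DQA3 probe, A_73_118124, was not well above background on any array, cow 1 included.

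The class I gene JSP.1 set cow 9 apart. At A_73_P296616 cow 9 read -5.63 early and -6.62 late, while the other 9 cows ranged from 4.03 to 6.88 early and from 4.17 to 6.78 late. Within the high state cow 10 (4.03 and 4.17) and cow 2 (4.50 and 4.38) stood below the other 7 cows. A_73_P047531 read -8.87 and -9.23 in cow 9, -2.60 and -2.64 in cow 2, -2.55 and -2.76 in cow 10, and up to 1.77 elsewhere. The same 3 cows were thus the lowest at both probes in both periods. The third JSP.1 probe, A_73_112038, had a different order: cow 9 read -0.20 early and -0.92 late, the second highest in each period after cow 1, and cow 4 was the lowest with -4.27 and -4.36.

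The comparison probes with the current name JSP.1 also had cow 9 alone in the low state. A_73_P107911 read -6.84 and -7.10 there, against -1.57 to 2.96 in the other cows. A_73_P109228 read -2.62 and -2.96, against 0.42 to 2.74. The 3 comparison probes of BOLA-DQB1, by contrast, had no gap over 0.63 and were well above background on all 20 arrays. A_73_P042991, from the same record as one of them (A_73_P107936), did have a gap, of 8.25, and was well above background only on the 2 arrays of cow 1.

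Every cow held the same state early and late at each of the 10 probes, 100 of 100 pairs of a cow's own arrays. When the early array of one cow was set beside the late array of another, 636 of 900 pairs (70.7%) were in the same state. Outside the members, 78 probes were in 2 states, and 34 of them kept the state in all 10 cows; over the 78, the median was 8 cows and the minimum 6. Read across the 10 probes, cows 3, 5, 6, 7, 8 and 10 shared 1 profile, cows 2 and 4 shared another, and cows 1 and 9 each had their own. Because the members were picked for their states on these same arrays, the agreement between a cow's early and late states is not a check of the pairing. The titles and animal numbers give the late samples the same cows as the early ones while their source names carry other cow numbers. The pairing used here follows the titles and animal numbers.

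**Figure D2:**
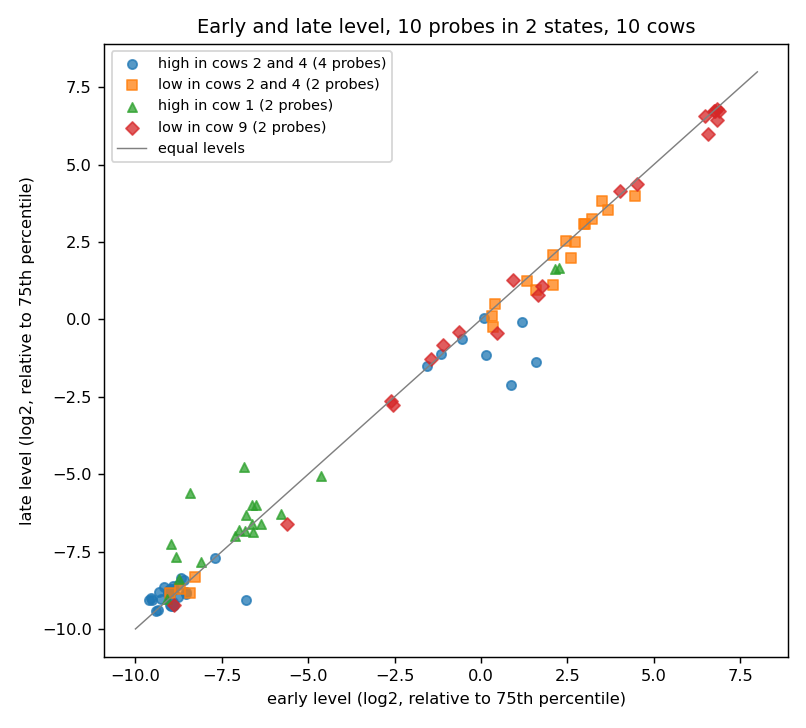
Each point is 1 probe in 1 cow, with its early level on the x axis and its late level on the y axis (log2 relative to the 75th percentile), for the 10 probes in 2 states, and marker shapes give the 4 patterns. The points form a low and a high group along the line of equal levels, with none in the mixed corners, which shows the 100 of 100 pairs that kept their state.

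The share of a probe's variance that lay between cows, after the period means were removed, was at least 0.94 at the 10 probes in 2 states. Its median over all probes tested for a period difference was 0.22 and its 90th percentile 0.64. The lowest member, A_73_P052096 (BOLA-DQB), had 0.15. These shares follow from the choice of the members and are given as a description.

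The graded members, whose levels did not fall into 2 states, also differed from cow to cow. A_73_P052576 (HLA-DQA2) came in 3 tiers: cows 2 and 4 lay between -6.89 and -6.03, cows 5, 6, 7, 8 and 10 between -3.56 and -1.52, and cows 1, 3 and 9 between -1.20 and -0.40. The overlapping A_73_P235072 placed cows 1, 3 and 9 from -1.50 to -0.62 and the other 7 cows from -5.16 to -2.31. A_73_P039756 (BOLA-DQA2) had the same cows 1, 3 and 9 highest in both periods, from -0.97 to 0.39, with an overlap with the early arrays of cows 4 and 6. JSP.1 at A_73_112038 again had cows 1, 3 and 9 as its highest 3 early and late.

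Other HLA-DQA2 probes ranked the cows differently. A_73_P118256 ranged from -3.44 to -2.21 in cow 1 and from -2.54 to 1.41 in the other cows. Its highest 3 in both periods were cows 3, 4 and 8. At A_73_111307 cow 1 likewise lay low, from -7.00 to -5.46, and cow 4 reached -0.91 early. A_73_P245636 ranged from -0.57 to 0.49 in cows 1, 3 and 9 and from -2.92 to 0.12 in the others. Cow 1 was thus among the highest at 3 graded probes named HLA-DQA2 and among the lowest at 2 others.

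**Figure D3:**
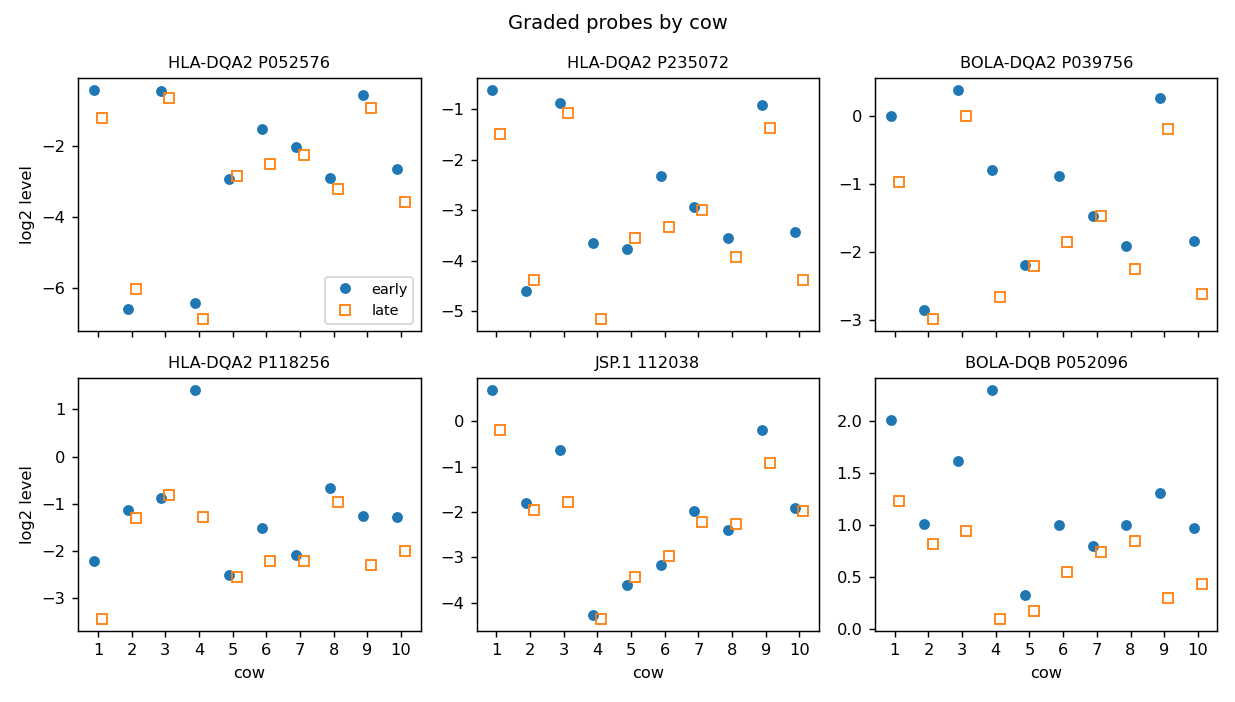
Each panel shows 1 graded probe, with the cow on the x axis and the log2 level on the y axis (each panel has its own range), filled circles for early and open squares for late. At A_73_P052576 the 4 arrays of cows 2 and 4 lie at or below -6.03, and in the panel of P118256 the early array of cow 4 stands highest at 1.41.

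For each pattern, the probes most like its widest-gap member were found by Pearson correlation over the 20 arrays, among probes well above background on at least 8 arrays. For JSP.1 these were A_73_P109228 (r = 0.96), A_73_P107911 (r = 0.93) and a probe the array describes as a folate receptor alpha transcript on chromosome 15 (ENSBTAT00000027602, r = 0.92), which was at -3.67 or below on both arrays of cow 9 and at 3.36 or above on all others. For BOLA-DQB1 the nearest was MGC126945 on chromosome 23 (r = 0.90), with a gap of 0.92. For BOLA-DQA5 they were ACBD3 (r = 0.80), TC376167 (r = 0.79) and GPD2 (r = 0.79), and for BOLA-DQA3 STRAP (r = 0.85), TC351669 (r = 0.83) and KDM8 (r = 0.80), none with a gap over 0.57. The arrays share the 2-cow or 1-cow split that the correlation rests on.

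Without the filter on dim probes, a search added after the data were seen, the nearest to BOLA-DQA3 was the LOC790858 probe A_73_P042991 (r = 0.98), whose sequence resembles DQB. It read 0.67 or above on both arrays of cow 1 and between -9.56 and -7.58 on the other 18. The next were CBLN3 (r = 0.97, gap 2.31) and LY96 (r = 0.91, gap 1.14), each well above background on 1 array. For BOLA-DQA5 the same search gave a probe the array names ITLN2 (r = 0.96, gap 1.82, well above background on 5 arrays) and B3GAT1 (r = 0.88, gap 0.57, on 0 arrays) ahead of ACBD3. For JSP.1 the nearest 3 did not change. Among other 2-state probes of class I genes, BOLA-N was low only in cow 9 at A_73_108788, the same pattern as JSP.1. At A_73_P035281, by contrast, BOLA-N was high only in cows 7 and 8, and the class I-like ULBP3 was high in cows 3, 5, 6 and 7.

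The second question of the design is the change between the periods, which the states do not measure. Of the 19 members, 13 were well above background on at least 8 arrays and were tested in a limma fit with the cow as a block. The other 6 were A_73_105688, A_73_P336561, A_73_P031561, A_73_P062199, A_73_P036601 and A_73_118124. None of the 13 passed an adjusted p of 0.05 in limma (8 had an unadjusted p under 0.05, as had 8048 or 23.8% of all probes), against 378 of all 33759 probes (1.12%), 119 higher and 259 (0.767%) lower late. The median change of the 13 was -0.36 and that of all probes -0.02, with 12 of 13 members and 52.6% of all probes below 0. In whole tissue, fewer cells of a type and less RNA per cell cannot be told apart.

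The probes with the lowest adjusted p were graded ones. A_73_P245636 (HLA-DQA2) went from -1.06 ± 1.13 (SD, n = 10) early to -1.79 ± 0.96 late, and was lower late in 9 of 10 cows. Its change was -0.73 (95% interval -1.17 to -0.29, limma adjusted p = 0.0803). A_73_P052096 (BOLA-DQB), which was well above background in every cow, went from 1.24 ± 0.59 to 0.61 ± 0.36 and was lower late in 10 of 10 cows. Which DQB transcripts it binds was not tested. Its change was -0.62 (-1.03 to -0.22, limma adjusted p = 0.0928). A_73_P039756 (BOLA-DQA2) was also lower late in 10 of 10 cows, by -0.59 (-0.96 to -0.22, limma adjusted p = 0.0858). None of these passed the threshold, and the early and late ranges overlapped at each.

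The tested 2-state probes had estimates nearer 0 than these graded ones, but not nearer than every graded member. Graded changes ran from -0.79 at A_73_111307 (HLA-DQA2, limma adjusted p = 0.125) to -0.28 at A_73_112038 (JSP.1, limma adjusted p = 0.260). Since the members were picked for their states, nothing is read from this difference. BOLA-DQB1 at A_73_P109256 had a change of -0.02 (-0.20 to 0.15, limma adjusted p = 0.875), with 5 cows lower and 5 higher late. BOLA-DQA2 at A_73_P106611 had -0.34 (-0.59 to -0.09, limma adjusted p = 0.116). At both of these probes cows 2 and 4 were not well above background, so their differences do not measure a change in transcript level. JSP.1 had -0.21 at A_73_P296616 (limma adjusted p = 0.262) and -0.20 at A_73_P047531 (limma adjusted p = 0.416), and BOLA-DQA3 at A_73_P245461 had 0.21 (limma adjusted p = 0.579). Most of the arrays behind the last value are in the low state, and without cow 4 it was -0.0017. Without cow 9, the low-state cow, A_73_P296616 had -0.13. Over all fits that left out a cow, A_73_P047531 ranged from -0.26 to -0.12, the latter without cow 1 and also without cow 3.

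Cow 4 had the lowest change at several DQ probes. The late minus early difference of A_73_105688 (BOLA-DQB) was -2.99 in cow 4 and -0.08 in cow 2, the other cow in which it was high. For BOLA-DQA5 at A_73_P062199 it was -1.26 in cow 4 and -0.04 in cow 2. The less polymorphic class II alpha chain gene BOLA-DRA read 4.48 early and 2.60 late in cow 4, and 2.98 and 2.69 in cow 2. The mean late minus early difference of the 8 macrophage markers was -2.17 in cow 4. In the same cow it was -1.17 for the dendritic cell, -0.80 for the stromal and -0.55 for the T and NK cell markers. For the B cell, endothelial and epithelial markers it was -0.14, -0.02 and 0.32. The part of cell make-up in these values was not tested.

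**Figure D4:**
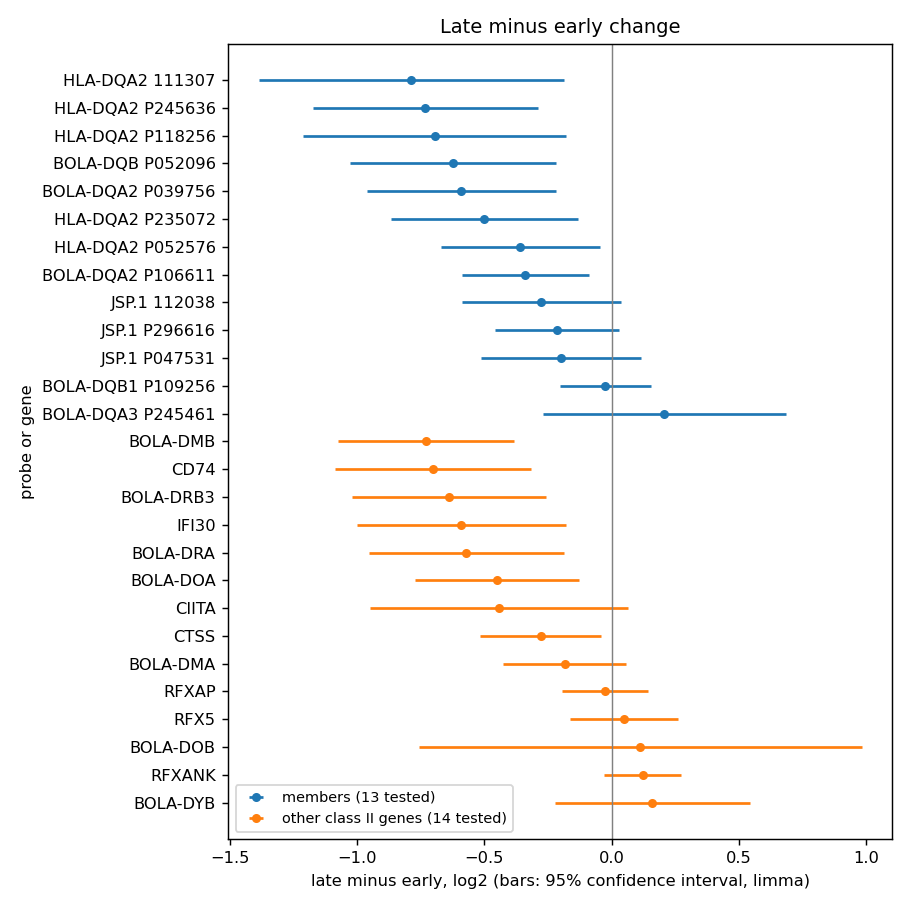
Points give the late minus early change in log2 with its 95% confidence interval from limma (x axis) for the 13 tested members, in blue, and 14 other class II genes, in orange. Of the members only BOLA-DQA3 P245461 lies above 0, and BOLA-DQB1 P109256 lies at -0.02.

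The other genes of antigen presentation were listed apart from the members. In the class II list 14 of the 16 genes with a nonmember probe on the array were tested and none passed (7 with an unadjusted p under 0.05, beside 23.8% of all probes, median change -0.36). BOLA-DMB, a chain of the peptide-loading DM molecule, had a change of -0.73 (limma adjusted p = 0.0530), and CD74, the invariant chain, had -0.70 (limma adjusted p = 0.0680). In the class I list 22 of 25 genes were tested and none passed (9 with an unadjusted p under 0.05, beside the same 23.8%, median -0.15). The immunoproteasome subunit PSMB10 had -0.44 (limma adjusted p = 0.0790) and the loading chaperone tapasin, TAPBP, had -0.31 (limma adjusted p = 0.0859).

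Markers of macrophages, dendritic cells and B cells, the main carriers of class II molecules, and of other cell types moved as follows. Of 8 macrophage and monocyte markers 4 fell late: the change was -1.79 for CD68 (limma adjusted p = 0.0055), -1.47 for VSIG4 (0.0047), -1.07 for TYROBP (0.0295) and -0.85 for MSR1 (0.0183). Over all probes tested 1.12% passed, 0.767% in the lower direction, and these are the shares to set beside each list here. The mean level of the 8 macrophage markers ranged from -1.41 to 0.35 early and from -2.03 to -0.36 late. Of 5 tested dendritic cell markers CD1E fell by 1.07 (limma adjusted p = 0.0484), of 8 T and NK cell markers NKG7 fell by 1.20 (0.0258), and of 8 stromal markers HAND2 fell by 0.87 (0.0470). In these lists the other markers did not pass, and some had estimates above 0. These were 1 of the 8 macrophage markers, CD163 (0.12), and 2 of the 8 T and NK cell markers, CD3D (0.23) and CD8A (0.01). None of 5 B cell, 7 epithelial or 7 endothelial markers tested passed; the smallest p in these lists belonged to BLK and PAX5, KRT18 and ELF3, and ENG and CDH5. The part of these cells in the members' changes was not tested.

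Slide and period largely coincide: of 5 slides, 2 held only early and 2 only late arrays, and 1 held both. With slide as a fixed block no probe passed in limma (587 of 33755 with an unadjusted p under 0.05). In that fit A_73_P052096 (BOLA-DQB) had a change of -0.02 in place of -0.62. No cow had both of its arrays on 1 slide, so this fit separates period from slide only through contrasts between cows. It cannot tell whether the fall at this probe would remain apart from slide. With slide as a random block 64 probes passed and no member. The early arrays of cows 1, 2, 3 and 4 shared the first slide and held 3 different profiles there. The part of slide in the states was not tested. On the 20 arrays 71.8% to 80.2% of noncontrol spots were well above background and none was saturated.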

How the data were processed

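The 20 scanner files hold the processed signal intensity of each spot on a linear scale, deposited by the authors and made with Agilent Feature Extraction 10.5.1.1 per the submitters' processing notes. The deposited value table matched log2 intensities scaled to each array's 75th percentile and then centred on each probe's median, and served as an alternative. The log2 levels used here were computed from the deposited intensities in that way without centring, leaving out control spots and outlier flags and averaging the spots of a probe. Names came from the array design, updated by accession and symbol where the RefSeq gene table (ARS-UCD2.0) held them. Probes well above background on at least 8 of 20 arrays were tested with limma 3.58.1 (R 4.3.3, lmFit and eBayes, cow as block) and Benjamini-Hochberg adjustment over all 33759; the fit was tested on simulated data. Each probe was tested alone.

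Pairing follows the titles and animal numbers. A cow's own arrays deviated together (correlation -0.11 to 0.77, median 0.41, over 0.1 in 8 of 10 cows; other cows' median -0.03).

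The members and gene lists were chosen with earlier results of these data known. Named were all members, up to 4 passing genes per list (otherwise the 2 of smallest p), and the 3 probes nearest to each pattern, of which those after the first for BOLA-DQB1 are not reported here. Alternatives changed the block, slide, background correction, scaling, filter, variance model, gap limit and arrays per state, and left out each cow. Columns of samples left unused numbered 0.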

Additional observations from a re-analysis of the deposited data

Results flagged for a closer look

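Among the levels per period and the changes per cow of the members and of BOLA-DMB, CD74, PSMB10 and TAPBP, 69 groups of 10 cows were examined, and in 18 of them the gap between the most extreme cow and the next took up more of the whole range than Dixon's 95% critical value for 10 samples allows. Chance alone sets about 1 in 20 such groups apart, and the members were chosen for their split levels. Cow 1 was the highest at A_73_P245461 (BOLA-DQA3), with a ratio of gap to range of 0.86 early and 0.743 late, and at A_73_P036601 (HLA-DQA2), with 0.602 early and 0.628 late. Cow 9 was the lowest at A_73_P296616 (JSP.1), with 0.772 early and 0.805 late, and at A_73_P047531 (JSP.1), with 0.589 early and 0.615 late.

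The remaining 10 groups concerned cow 4. Its early level was the highest at A_73_111307 (HLA-DQA2, ratio 0.473) and at A_73_P118256 (HLA-DQA2, ratio 0.531). Its late minus early difference was the lowest at A_73_105688 (BOLA-DQB, -2.99, ratio 0.757), A_73_P052096 (BOLA-DQB, -2.21, ratio 0.559), A_73_P118256 (HLA-DQA2, -2.69, ratio 0.532), A_73_P031561 (BOLA-DQA5, -1.30, ratio 0.532), A_73_P062199 (BOLA-DQA5, -1.26, ratio 0.529), A_73_P245636 (HLA-DQA2, -2.32, ratio 0.491) and A_73_P039756 (BOLA-DQA2, -1.88, ratio 0.488). It was the highest at A_73_P245461 (BOLA-DQA3, 2.09, ratio 0.58), where both of its arrays were in the low state.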

How the results depend on the processing

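Every cow kept its state between the periods at every 2-state member under each alternative run. The number of members in 2 states was 10, as it was with gap limits of 3 and 4, 1 array per state, quantile normalization and the deposited table; it was 11 with a gap limit of 2, 9 with normexp background correction, 6 when each state needed 4 arrays (cow 1 and cow 9 hold 2 each), and 8 to 11 when a cow was left out. No member passed the late against early test in limma under any alternative run, with 0 calls throughout. Over all probes the main count of 378 calls was 194 with no replicate block, 1533 with the block as a random effect, 0 with slide as a fixed block (587 with an unadjusted p under 0.05), 64 with slide as a random block, 675 with quantile normalization, 133 with no filter and 0 on slide 3 alone, an alternative added after the data were seen (2733 with an unadjusted p under 0.05). Leaving out a cow gave 67 to 466 calls: 68, 91, 96, 168, 466, 99, 198, 67, 221 and 74 for cows 1 to 10. The split of 119 higher against 259 lower was 177 against 203 with normexp, 286 against 389 with quantile normalization and 199 against 286 when scaled to the median of detected probes. Of the other MHC and antigen presentation genes 0 passed in the main fit, 3 with the replicate block as a random effect, and 1 each with normexp, quantile normalization, the median of detected probes and trended robust variance, and 0 to 1 when a cow was left out; BOLA-DMB passed without cow 5 (-0.80). The sign turned for A_73_P047531 (JSP.1) to 0.064 with slide fixed and 4.79 on slide 3 alone, for A_73_P296616 (JSP.1) to 5.98 on slide 3 alone, for A_73_P109256 (BOLA-DQB1) to 0.0036 with the median of detected probes and 0.027 without cow 1 (-0.061 to 0.027 over the cows left out), for A_73_P245461 (BOLA-DQA3) to -1.53 with slide fixed and -0.0017 without cow 4 (-0.0017 to 0.298 over the cows left out), and with slide fixed for PAX5 to 0.53, ELF3 to -0.11 and ENG to 0.61. On slide 3 the early arrays are of cows 9 and 10 and the late ones of cows 1 and 2, so period cannot be told apart from cow there. The low JSP.1 array on it is the early one of cow 9. With slide fixed, period is separated from slide only through contrasts between cows. Otherwise the cause of these turns was not tested. Of the single genes, 7 comparisons became calls and 51 lost one, all with the same sign. CD1E passed in 1 of 10 fits without a cow, HAND2 in 2, TYROBP in 5, NKG7 in 6 and MSR1 in 9. The 6 members not well above background on 8 arrays limit what the period comparison covers.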
